A study of Homo sapiens with 4 samples.

Results

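The 10 genes described here encode cytokines and chemokines, the secreted proteins by which airway epithelium calls in and instructs leukocytes. They are the chemokines *IL8*, *CXCL1*, *CXCL2* and *CCL2*, the IL6-family cytokines *IL6* and *LIF*, the IL1-family cytokines *IL1A*, *IL1B* and *IL18*, and the growth factor *CSF1*. They were chosen by name, not by a threshold on measured values, and are 10 of the 16708 genes listed in at least 1 library. RNA-Seq was run on BEAS2B, an immortalized, virus-transformed line of human bronchial epithelial cells grown in medium with serum, to ask how loss of the RNA-binding protein QKI changes these cells. The QKI-knockdown cells (sh-QKI, 2 libraries) stably expressed 1 shRNA against *QKI*, sh-Q3, from a retroviral vector. The control cells (sh-Ctrl, 2 libraries) carried the same kind of vector with an shRNA against luciferase. Each group has a replicate 1 and a replicate 2. The sequencing was done once with shorter and once with longer reads, and no source used here ties a replicate number to a read length. Nothing says that the replicates were separate cultures, so p-values cover only the spread between these libraries. The test used, limma, borrows spread from genes of similar level, so a p-value does not measure 1 gene's own spread alone.

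In airway epithelium, bacterial products, viruses and the cytokines TNF and IL1 switch many of these genes on together through the transcription factor NF-kB, which binds kappaB motifs in their promoters. Their mRNAs are mostly short-lived, because some proteins that bind AU-rich elements in the 3′ UTR recruit the decay machinery. *IL8*, *CXCL1* and *CXCL2* proteins attract neutrophils through CXCR1 and CXCR2, CCL2 attracts monocytes through CCR2, and IL1 acts back on the epithelium to induce more of the same chemokines.

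The shRNA against *QKI* matched the mRNA of that gene once, at chr6:163956115-163956133 on the plus strand (GRCh37). Its 19-nt target is shown because every comparison below rests on it.
sh-Q3 target in QKI: gaagagagcagttgaagaa
*QKI* itself had 2.52 and 3.85 RPKM (reads scaled to gene length and to the library's total) in sh-QKI replicates 1 and 2, against 8.94 and 14.6 RPKM in sh-Ctrl replicates 1 and 2. Both sh-QKI libraries lay below both sh-Ctrl libraries. Within replicate 1 the ratio of sh-QKI to sh-Ctrl was 0.282, and within replicate 2 it was 0.264. The libraries held between 20052951 and 34862008 reads, counted from the RPKM values, and between 15159 and 15587 listed genes. Of the 10 markers of airway epithelium, 5 averaged at least 0.5 RPKM in a group, namely *KRT7*, *KRT8*, *KRT17*, *KRT18* and *EPCAM*. *KRT19* had 0.560 and 0.158 RPKM in sh-QKI replicates 1 and 2, against 0.875 and 0.113 RPKM in sh-Ctrl replicates 1 and 2, *CDH1* was at 0.181 RPKM or lower, *TP63* was at or near 0, and *KRT5* and *KRT14* had no value in any library and were set to 0. By the same limit on group means, 3 of the 10 leukocyte markers passed (*CD14*, *CD68* and *CORO1A*), and the pan-leukocyte marker *PTPRC* was at 0.00509 RPKM or lower. Of the fibroblast markers 3 of 8 passed (*VIM*, *THY1* and *COL1A1*), against 0 of 6 each for endothelium and for ciliated and secretory cells.

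The promoters of the neutrophil chemokines and of *IL6* are shown because their kappaB-type motifs are the feature that these genes share. RefSeq (GRCh38.p14) gave a window of 250 bases before to 50 bases after the start site for 6 of the 10 genes. The motif searched was GGNNTTTCC, on both strands, with N for any base, and it was present in 6.26% of all 35116 such windows. It was found in 4 of the 6 genes, once in *IL8* and *IL6* and 2 times in *CXCL1* and *CXCL2*, and in none of the windows of *IL1A* and *IL1B*. The windows are chr4:73740319-73740618 (plus strand) for *IL8*, chr4:73869143-73869442 (plus strand) for *CXCL1*, chr4:74099146-74099445 (minus strand) for *CXCL2* and chr7:22726950-22727249 (plus strand) for *IL6*. Capitals mark the motif.
IL8: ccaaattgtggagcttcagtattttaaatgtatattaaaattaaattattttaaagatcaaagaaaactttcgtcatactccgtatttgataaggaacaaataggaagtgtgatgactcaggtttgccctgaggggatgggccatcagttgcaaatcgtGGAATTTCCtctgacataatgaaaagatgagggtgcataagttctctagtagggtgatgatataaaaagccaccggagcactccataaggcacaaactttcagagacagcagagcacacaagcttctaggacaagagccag
CXCL1: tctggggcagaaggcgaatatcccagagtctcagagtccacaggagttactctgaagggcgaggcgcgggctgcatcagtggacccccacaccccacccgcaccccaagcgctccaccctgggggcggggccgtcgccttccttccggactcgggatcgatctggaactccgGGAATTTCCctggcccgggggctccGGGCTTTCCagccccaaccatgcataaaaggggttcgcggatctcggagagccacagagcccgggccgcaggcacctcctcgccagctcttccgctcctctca
CXCL2: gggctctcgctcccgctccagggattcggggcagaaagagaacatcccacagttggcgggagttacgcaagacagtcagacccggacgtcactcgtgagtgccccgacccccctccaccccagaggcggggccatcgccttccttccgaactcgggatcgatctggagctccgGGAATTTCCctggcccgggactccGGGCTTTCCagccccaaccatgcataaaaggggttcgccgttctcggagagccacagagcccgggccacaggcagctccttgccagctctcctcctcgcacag
IL6: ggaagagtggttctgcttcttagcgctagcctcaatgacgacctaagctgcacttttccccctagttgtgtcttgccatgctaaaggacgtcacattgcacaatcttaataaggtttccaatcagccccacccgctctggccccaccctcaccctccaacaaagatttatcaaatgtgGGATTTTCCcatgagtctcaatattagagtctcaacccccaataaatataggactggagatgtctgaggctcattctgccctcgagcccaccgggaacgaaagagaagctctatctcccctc
Counted from the start site, the motif began at -91 in *IL8* and at -72 in *IL6*. In *CXCL1* the motifs began at -78 and -53, and in *CXCL2* at -77 and -53, with the same letters, GGAATTTCC and GGGCTTTCC, in the same order. A match of letters is a description of the window and shows no binding.

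The 3′ UTRs of the same genes were rich in ATTTA, the core pentamer of AU-rich elements. The 10 genes held a median of 5.78 copies per 1000 nt of 3′ UTR, against 1.68 over 11413 tested genes with an annotated 3′ UTR. At least 5 copies were present in 7 of the 10 genes, against 33.2% of the tested genes. The densities were 14.1 copies per 1000 nt in *IL6*, 13.97 in *CXCL2* and 9.84 in *IL1B* at one end, and 2.66 in *CCL2*, 2.19 in *LIF*, 1.86 in *CSF1* and 0 in *IL18* at the other. Stretches of 30 bases show the overlapping runs, with the run in capitals. They are chr4:74963302-74963331 (minus strand) for *CXCL2*, chr4:74736391-74736420 (plus strand) for *CXCL1*, chr2:113587571-113587600 (minus strand) for *IL1B* and chr4:74608836-74608865 (plus strand) for *IL8*, all in GRCh37.
CXCL2: ttctATTTATTTATTTATTTATTTAtttgt
CXCL1: agtcttctATTTATTTATTTAttcattagt
IL1B: gcttccctATTTATTTATTTAtttgtttgt
IL8: ttatttatgtATTTATTTAagcatcaaata
The run held 5 overlapping copies in *CXCL2*, 3 in *CXCL1* and *IL1B* and 2 in *IL8*. The letters ACTAAC or ACTAAT, the core of the motif that QKI binds in RNA, were present on the sense strand in the mRNA of 5 of the 10 genes (*IL8*, *CCL2*, *LIF*, *IL1A* and *CSF1*, 1 copy each), against 48.0% of the tested genes. A match is no evidence of binding.

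All 10 mRNAs were detected in all 4 libraries, with between 34 and 12475 reads, and all 10 passed the limit of a mean of 0.5 RPKM. Mean levels ranged from 2.77 RPKM (*IL18*) to 93.6 RPKM (*CCL2*). In every library *IL8*, *CXCL1* and *CCL2* were the 3 most abundant of the 10, and they made up 81.3% and 86.8% of the summed RPKM of the 10 genes in sh-QKI replicates 1 and 2, against 80.6% and 85.3% in sh-Ctrl replicates 1 and 2. The order among the 3 was not fixed, since *IL8* led both libraries of replicate 1 and *CCL2* led both libraries of replicate 2. The other 7 genes had overlapping ranges over the 4 libraries, apart from *IL18*, whose highest library (3.96 RPKM) lay below the lowest library of *LIF* (7.19 RPKM) and of *CSF1* (5.98 RPKM). RPKM divides by a gene length. The lengths recovered from the RPKM values were between 0.378 times (*CCL2*) and 1.98 times (*IL18*) the annotated exons. Levels of different genes are thus less certain than a gene's ratio between libraries.

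**Figure D1:**
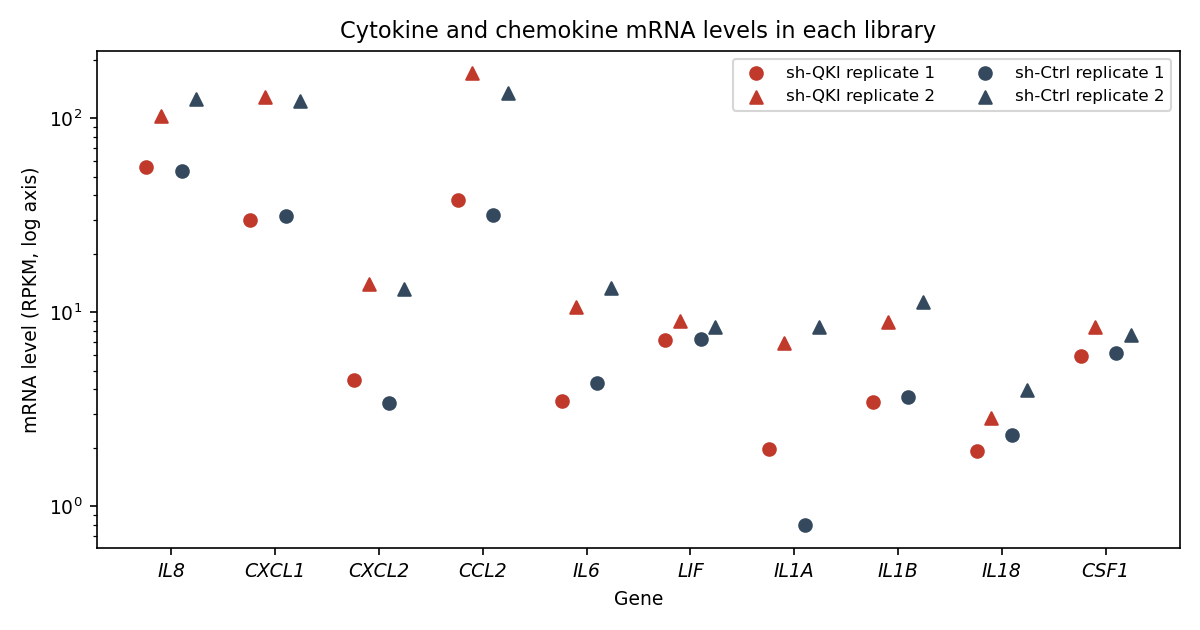
mRNA level of each of the 10 genes (RPKM, log axis), with 1 point for each library, sh-QKI left of sh-Ctrl. For each of the 10 cytokine and chemokine genes the 2 groups overlap and the libraries of replicate 2 (triangles) lie above those of replicate 1 (circles).

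The main comparison asked whether cytokine and chemokine mRNA differs between QKI-knockdown and control cells. None of the 10 genes was called higher or lower in sh-QKI. limma on log2(RPKM + 0.5), with Benjamini-Hochberg adjustment over 11829 genes and a threshold of 0.05, called 0 of the 10 in either direction, and it called 0 of all tested genes higher (0.0%) and 0 lower (0.0%). At an unadjusted p under 0.05 it gave 0 of the 10, against 4 higher (0.0338%) and 9 lower (0.0761%) of all tested genes. limma's voom on the recovered reads also called 0 of the 10, and so did limma with the replicate number as a block, beside 0.49% of all tested genes higher and 0.364% lower. The adjusted p (limma) was 1.00 for each of the 10 genes and for *QKI*, which the block called (limma adjusted p = 3.16e-33). The standard errors of the 10 log2 fold changes, 0.27 to 1.11, include the difference between the replicate numbers. The test without a block missed *QKI*, so its 0 of 10 does not show that these genes are unchanged. The groups failed to overlap for 0 of the 10 genes, near the small shares of all tested genes, 5.71% (sh-QKI higher) and 2.89% (sh-QKI lower). The replicate numbers differ within each group, so overlap does not show that a gene is unchanged. The median log2 fold change of the 10 was 0.02, with 5 above and 5 below 0, beside a median of 0.03 over all tested genes. In RNA from whole cultures, fewer expressing cells and less RNA per cell cannot be told apart.

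Within a replicate number, 2 of the 10 genes were higher in sh-QKI both times (*CXCL2* and *CCL2*), beside 31.7% of the tested genes, and 3 were lower both times (*IL6*, *IL1B* and *IL18*), beside 16.6%. These shares need no size of difference and carry no test. The 95% intervals below cover the counting of reads only (exact Clopper-Pearson, given the sum of both libraries) and not the spread between cultures. The median size of the difference within replicate 1 was 0.15 on the log2 scale for the 10 genes, beside 0.12 for all tested genes, and within replicate 2 it was 0.27, beside 0.12.

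*CCL2*, the monocyte chemokine (chr17:32582293-32584227, plus strand, hg19), had 37.9 and 170 RPKM in sh-QKI replicates 1 and 2, against 31.7 and 135 RPKM in sh-Ctrl replicates 1 and 2. It was higher in sh-QKI within each number, 1.19 times (95% interval 1.05 to 1.35) in replicate 1 and 1.27 times (1.21 to 1.32) in replicate 2. The mean was 104 ± 93.7 RPKM in sh-QKI and 83.2 ± 72.7 RPKM in sh-Ctrl (SD, n = 2 each). Its log2 fold change was 0.29 (SE 1.04), and both the SDs and this SE include the difference between the replicate numbers. With the replicate block the SE was 0.12, and the gene was not called (limma adjusted p = 0.385).

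*IL8* (chr4:74606236-74609433, plus strand), the main neutrophil chemokine of airway epithelium, had 56.2 and 103 RPKM in sh-QKI replicates 1 and 2, against 53.3 and 125 RPKM in sh-Ctrl replicates 1 and 2. The difference changed direction with the number, 1.05 times (1.00 to 1.11) in replicate 1 and 0.819 times (0.797 to 0.842) in replicate 2. Its log2 fold change was -0.11 (SE 0.58). *CXCL1* (chr4:74735110-74737025, plus strand), a neutrophil chemokine of the GRO group, had 29.9 and 129 RPKM in sh-QKI against 31.4 and 123 RPKM in sh-Ctrl. The sh-QKI to sh-Ctrl ratios were close to 1 in both numbers, 0.952 (0.865 to 1.05) and 1.05 (1.01 to 1.09), and so was the fitted change, with a log2 value of -0.0019 (SE 1.00). *CXCL2* (chr4:74962757-74964913, minus strand), its close paralog, had 4.45 and 14.1 RPKM in sh-QKI against 3.39 and 13.1 RPKM in sh-Ctrl. It was higher in sh-QKI 1.31 times (1.01 to 1.75) and 1.07 times (0.961 to 1.20), the second interval including 1, with a log2 fold change of 0.22 (SE 0.84). *CXCL1* and *CXCL2* share sequence, and ambiguous reads were left out by the authors. Of the 50-nt windows of the *CXCL1* mRNA 38.8% matched another CXC chemokine mRNA with up to 3 mismatches, and of the 75-nt windows 25.7%. For *CXCL2* the shares were 49.5% and 38.8%, and for *IL8* 0% at both lengths, so the levels of *CXCL1* and *CXCL2* are uncertain.

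*IL6* (chr7:22765503-22771621, plus strand), the cytokine that drives the acute-phase response, was the gene with the most even difference. It had 3.48 and 10.7 RPKM in sh-QKI replicates 1 and 2, against 4.34 and 13.3 RPKM in sh-Ctrl replicates 1 and 2. Within replicate 1 the sh-QKI level was 0.802 times that of sh-Ctrl (0.687 to 0.934) and within replicate 2 0.800 times (0.749 to 0.855), yet the groups overlapped. The log2 fold change was -0.30 (SE 0.76). *LIF* (chr22:30636442-30642748, minus strand), which like IL6 signals through the gp130 receptor chain, had 7.19 and 8.99 RPKM in sh-QKI, against 7.28 and 8.35 RPKM in sh-Ctrl. All 4 libraries of *LIF* lay close together, the within-number ratios were 0.988 (0.877 to 1.11) and 1.08 (0.991 to 1.17), and both intervals included 1.

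*IL1A* (chr2:113531502-113542070, minus strand), an alarmin that acts without cleavage, had 1.97 and 6.96 RPKM in sh-QKI replicates 1 and 2, against 0.798 and 8.38 RPKM in sh-Ctrl replicates 1 and 2. It showed the largest within-number difference of the 10 genes, 2.47 times (1.62 to 3.84) higher in sh-QKI in replicate 1, where it had 86 and 34 reads in sh-QKI and sh-Ctrl, and the opposite direction, 0.830 times (0.735 to 0.938), in replicate 2. *IL1B* (chr2:113587328-113594393, minus strand), whose precursor caspase-1 cleaves, had 3.43 and 8.95 RPKM in sh-QKI, against 3.66 and 11.3 RPKM in sh-Ctrl. It was lower in sh-QKI within both numbers, 0.937 times (0.774 to 1.14) and 0.790 times (0.725 to 0.862), the first interval including 1. *IL18* (chr11:112013976-112034819, minus strand), another substrate of caspase-1, had 1.93 and 2.85 RPKM in sh-QKI, against 2.34 and 3.96 RPKM in sh-Ctrl. It was also lower within both numbers, 0.826 times (0.627 to 1.08) and 0.720 times (0.611 to 0.847). The log2 fold changes were 0.34 (SE 1.11) for *IL1A*, -0.20 (SE 0.71) for *IL1B* and -0.32 (SE 0.36) for *IL18*.

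*CSF1* (chr1:110452864-110473614, plus strand), the growth factor of macrophages, had 5.98 and 8.41 RPKM in sh-QKI replicates 1 and 2, against 6.13 and 7.59 RPKM in sh-Ctrl replicates 1 and 2. The ratio was 0.975 (0.873 to 1.09) in replicate 1 and 1.11 (1.03 to 1.19) in replicate 2. The log2 fold changes were 0.05 (SE 0.31) for *CSF1* and 0.04 (SE 0.27) for *LIF*, the smallest standard errors of the 10 genes.

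**Figure D2:**
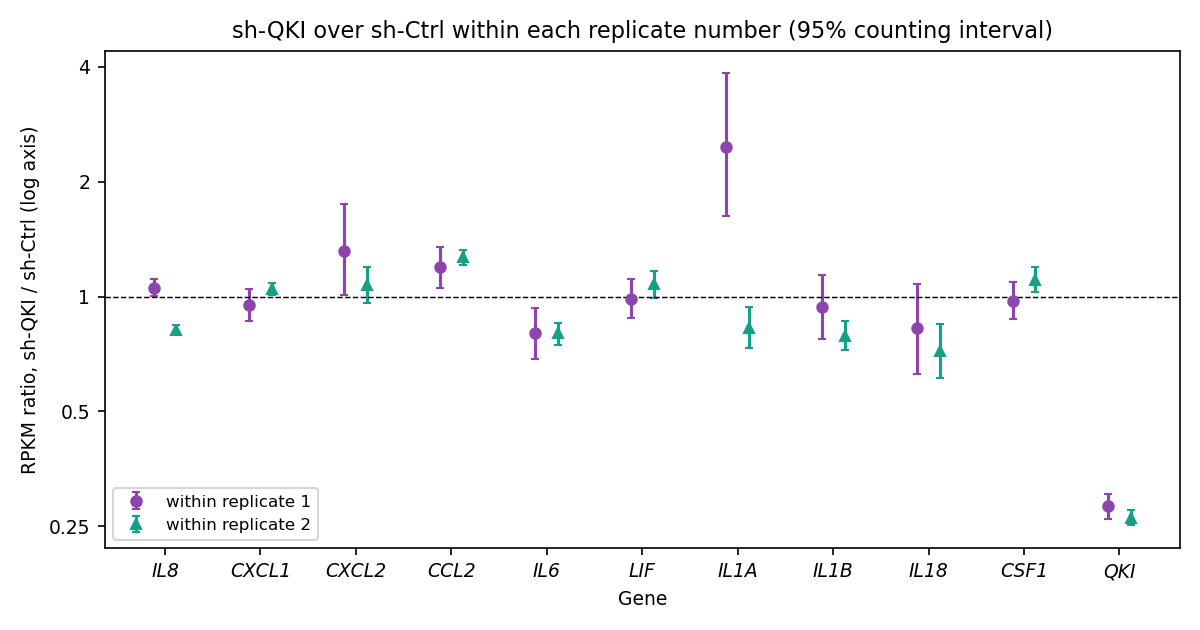
Ratio of sh-QKI to sh-Ctrl RPKM within replicate 1 and within replicate 2 for the 10 genes and *QKI* (log axis), with bars for the 95% counting interval. *IL6* lies at 0.802 and 0.800 and *CCL2* at 1.19 and 1.27, while *IL1A* changes side, at 2.47 in replicate 1 and 0.830 in replicate 2, and *QKI* is at 0.282 and 0.264.

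The larger difference in these mRNAs lay between the replicate numbers. For all 10 genes the difference between replicate 2 and replicate 1 was larger than both differences between sh-QKI and sh-Ctrl. The 10 genes summed to 463 and 449 RPKM in replicate 2 of sh-QKI and sh-Ctrl, against 152 and 144 RPKM in replicate 1 of sh-QKI and sh-Ctrl. A limma fit with terms for group and number called 9 of the 10 higher in replicate 2 (adjusted p under 0.05, all but *LIF*) and 0 lower, beside 35.2% of all tested genes higher and 35.7% lower. The median log2 difference was 1.44 for the 10 genes, beside 0.00 for all tested genes, and it was 1.38 within sh-QKI and 1.51 within sh-Ctrl. Over 2-fold higher in replicate 2 in both groups were 6 of the 10 (*CXCL1*, *CXCL2*, *CCL2*, *IL6*, *IL1A* and *IL1B*), beside 6.91% of the tested genes, and 0 of the 10 were over 2-fold lower in both, beside 8.32%.

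The chemokines carried much of this difference. *CCL2* was 4.50 times (4.12 to 4.92) as high in replicate 2 as in replicate 1 in sh-QKI and 4.24 times (3.85 to 4.68) in sh-Ctrl, with a log2 difference of 2.11 (SE 0.12, limma adjusted p = 3.78e-70). *CXCL1* was 4.31 and 3.91 times as high in replicate 2 in sh-QKI and sh-Ctrl, with a log2 difference of 2.02 (SE 0.12, limma adjusted p = 5.23e-65), and *CXCL2* 3.16 and 3.87 times, with a log2 difference of 1.68. Without the filter on low values the adjusted p (limma) of *CCL2* and of *CXCL1* was 0.000283. *IL8* differed less, 1.83 times (1.75 to 1.90) in sh-QKI and 2.35 times (2.26 to 2.45) in sh-Ctrl, so that the ratio of *IL8* to *CXCL1* RPKM was 0.797 and 1.02 in replicate 2 of sh-QKI and sh-Ctrl, against 1.88 and 1.70 in replicate 1 of sh-QKI and sh-Ctrl. *IL8* thus exceeded *CXCL1* in both libraries of replicate 1 but not in replicate 2 of sh-QKI. The share of *CXCL1* windows that match another CXC chemokine depends on read length (38.8% at 50 nt, 25.7% at 75 nt), and that of *IL8* is 0% at both. The part of this in the ratio, if a number stands for a length, was not tested.

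Among the cytokines *IL1A* differed most between the numbers, 3.53 times (2.81 to 4.56) in sh-QKI and 10.5 times (7.41 to 15.6) in sh-Ctrl, with a log2 difference of 2.18 (limma adjusted p = 4.90e-49, or 0.00112 without the filter on low values). The 2 folds have counting intervals that do not overlap, and whether the groups differ in this beyond the spread between cultures was not tested. *IL6* was 3.06 and 3.07 times as high in replicate 2 in sh-QKI and sh-Ctrl, nearly the same fold in both groups, and *IL1B* 2.61 and 3.10 times. The SE of the fit with group and number was 0.14 for *IL1A* and 0.13 for *IL6*. It thus hardly followed how well the 2 groups agreed, and the small p-values of this fit do not measure that agreement. *IL18* and *CSF1* moved least among the 9 genes called, with log2 differences of 0.56 (limma adjusted p = 3.47e-04) and 0.37 (limma adjusted p = 0.00749). *LIF*, with a log2 difference of 0.24 (SE 0.13), did not pass (limma adjusted p = 0.0810).

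**Figure D3:**
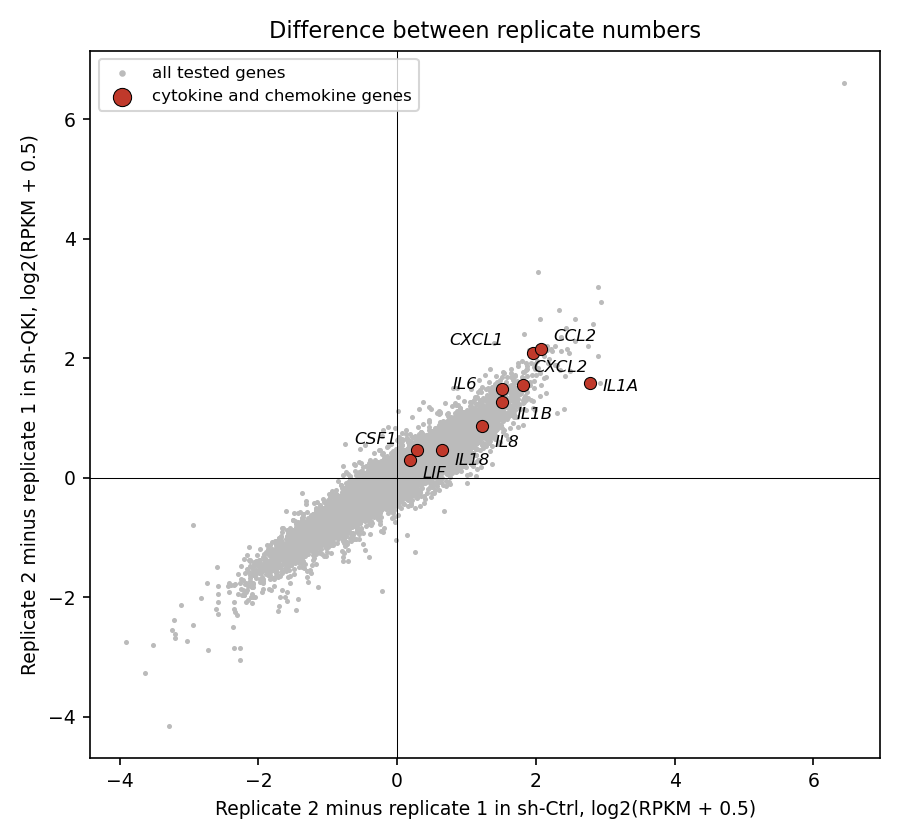
Replicate 2 minus replicate 1 on the log2(RPKM + 0.5) scale, in sh-QKI (vertical) against sh-Ctrl (horizontal), for all tested genes (grey) and the 10 genes (red, labelled). All 10 lie above 0 on both axes, from *LIF* at 0.30 in sh-QKI and 0.19 in sh-Ctrl to *CCL2* at 2.16 and 2.07, and *IL1A* lies to the right of the others at 1.59 and 2.77.

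Other genes differed between the numbers in the same libraries. The markers of airway epithelium summed to 271 and 225 RPKM in replicate 2 of sh-QKI and sh-Ctrl, against 697 and 739 RPKM in replicate 1 of sh-QKI and sh-Ctrl. The actin gene *ACTB* had 1011 and 921 RPKM in replicate 2 of sh-QKI and sh-Ctrl, against 2348.5 and 2689 RPKM in replicate 1 of sh-QKI and sh-Ctrl, whereas the glycolytic enzyme gene *GAPDH* had 831 and 765 RPKM, against 927 and 984 RPKM in the same libraries of replicate 1. The monocyte marker *CD14* had 4.84 and 5.22 RPKM in replicate 2 of sh-QKI and sh-Ctrl, against 0.794 and 0.815 RPKM in replicate 1 of sh-QKI and sh-Ctrl, while the leukocyte markers together summed to between 18.96 and 22.92 RPKM in every library and *PTPRC* stayed at or near 0. The fibroblast markers summed to 360 and 365 RPKM in replicate 2 of sh-QKI and sh-Ctrl, against 798 and 1095 RPKM in replicate 1 of sh-QKI and sh-Ctrl. The part of these differences, and of depth, in the cytokine levels was not tested. Replicate 2 also had more reads, 34862008 and 34706058 in sh-QKI and sh-Ctrl, against 20571555 and 20052951 in replicate 1 of sh-QKI and sh-Ctrl. Replicate number and read length, if a number stands for a length, cannot be told apart.

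Genes around the 10 in their pathways were examined through lists. None of their tested genes, 81 in 7 lists, was called in either direction between sh-QKI and sh-Ctrl by limma without a block. That fit called 0.0% of all tested genes each way and missed *QKI*, so it does not show that the listed genes are unchanged. With the replicate block 1 was called higher (*CXCL16*, limma adjusted p = 0.00418) and 0 lower, beside 0.49% and 0.364% of all tested genes. The median log2 fold changes of the lists lay between -0.06 and 0.12, beside 0.03 for all tested genes. For the difference between the replicate numbers, each list's counts stand beside the shares called among all tested genes, 35.2% higher and 35.7% lower in replicate 2.

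Of the related cytokines and chemokines, 15 of the 31 listed were tested, with a median log2 difference of 0.40 between replicate 2 and replicate 1, and limma called 9 higher (beside 35.2% of all tested genes) and 5 lower (beside 35.7%) in replicate 2. The neutrophil chemokine *CXCL6* had 41.2 and 45.2 RPKM in replicate 2 of sh-QKI and sh-Ctrl, against 4.06 and 5.65 RPKM in replicate 1 of sh-QKI and sh-Ctrl, a log2 difference of 3.04 that exceeded that of each of the 10 genes. *CXCL5*, another neutrophil chemokine, was also higher in replicate 2 (log2 difference 2.09), whereas *MIF*, a cytokine made constitutively by many cells, was lower (log2 difference -2.12), and so was *IL32* (-0.56). Between sh-QKI and sh-Ctrl the log2 fold changes of these genes were -0.28 for *CXCL6*, -0.24 for *CXCL5*, 0.01 for *MIF* and 0.00 for *IL32*. Receptors and soluble antagonists were tested for 7 of 12 listed genes, and limma called 5 of the 7 higher (beside 35.2%) and 0 lower (beside 35.7%) in replicate 2. They include *IL6ST*, which encodes the gp130 chain shared by IL6 and LIF (log2 difference 1.30), the oncostatin M receptor *OSMR* (1.16) and *IL1RAP*, the accessory chain of the IL1 receptor (1.05), but *IL18BP*, the soluble IL18 antagonist, had a log2 difference of -0.05 and was not called.

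Of the 20 components of the NF-kB pathway itself, limma called 6 higher and 7 lower in replicate 2, with a median log2 difference of 0.01. Both counts are near the shares over all tested genes (35.2% and 35.7%). *NFKBIA*, an inhibitor that NF-kB induces, had 57.2 and 59.2 RPKM in replicate 2 of sh-QKI and sh-Ctrl. In replicate 1 of sh-QKI and sh-Ctrl it had 53.7 and 51.7 RPKM, and it did not pass (limma adjusted p = 0.258). *IRAK1*, a kinase of the IL1 receptor pathway, was lower in replicate 2 (log2 difference -1.44), and *TAB2*, an adaptor of the TAK1 kinase, was higher (1.20). *TNIP1* had a log2 difference of -0.05 and was not called. Of the 11 tested among other NF-kB-responsive genes, 7 were called higher (beside 35.2% of all tested genes) and 2 lower (beside 35.7%) in replicate 2, with a median of 0.76. *SOD2*, the mitochondrial superoxide dismutase, had 89.3 and 97.7 RPKM in replicate 2 of sh-QKI and sh-Ctrl, against 27.6 and 27.6 RPKM in replicate 1 of sh-QKI and sh-Ctrl. *ICAM1*, the adhesion molecule for leukocytes, *IER3* and *TNFAIP2* were also higher in replicate 2, with log2 differences of 0.80, 0.71 and 0.88. *ICAM1* was higher in sh-QKI within both numbers, by 0.23 and 0.31 on the log2 scale. It was not called between the groups without a block, nor with the replicate block (limma adjusted p = 0.527).

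Downstream of IL6 and LIF, 9 of 10 genes of the JAK-STAT pathway were tested, and limma called 4 of the 9 higher (beside 35.2% of all tested genes) and 1 lower (beside 35.7%) in replicate 2. *STAT3*, the transcription factor that gp130 activates, had 23.5 and 20.2 RPKM in replicate 2 of sh-QKI and sh-Ctrl, against 22.3 and 19.7 RPKM in replicate 1 of sh-QKI and sh-Ctrl, and was not called. The kinase *JAK1* and the phosphatase *PTPN11* were higher in replicate 2 by 0.30 and 0.37 on the log2 scale. For the processing and release of IL1 and IL18, 7 of 11 genes were tested and limma called 2 of the 7 higher (beside 35.2%) and 4 lower (beside 35.7%) in replicate 2. *PYCARD*, the adaptor of inflammasomes, *GSDMD*, which forms the membrane pore through which IL1 leaves, and the calpain *CAPN1* were lower in replicate 2, with log2 differences of -0.85, -0.74 and -1.005, and the calpain *CAPN2* was lower by a log2 difference of -0.28. Of the 12 AU-rich element binding and decay factors, limma called 3 higher (beside 35.2%) and 5 lower (beside 35.7%) in replicate 2. *HNRNPD* (AUF1), *KHSRP* and *ELAVL1* (HuR) were lower by log2 differences of -0.98, -0.89 and -0.42, and *TIAL1* was not called. The 3 called higher were *ZC3H12A*, *TIA1* and *RC3H2*, with log2 differences of 0.77, 0.62 and 0.46.

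**Figure D4:**
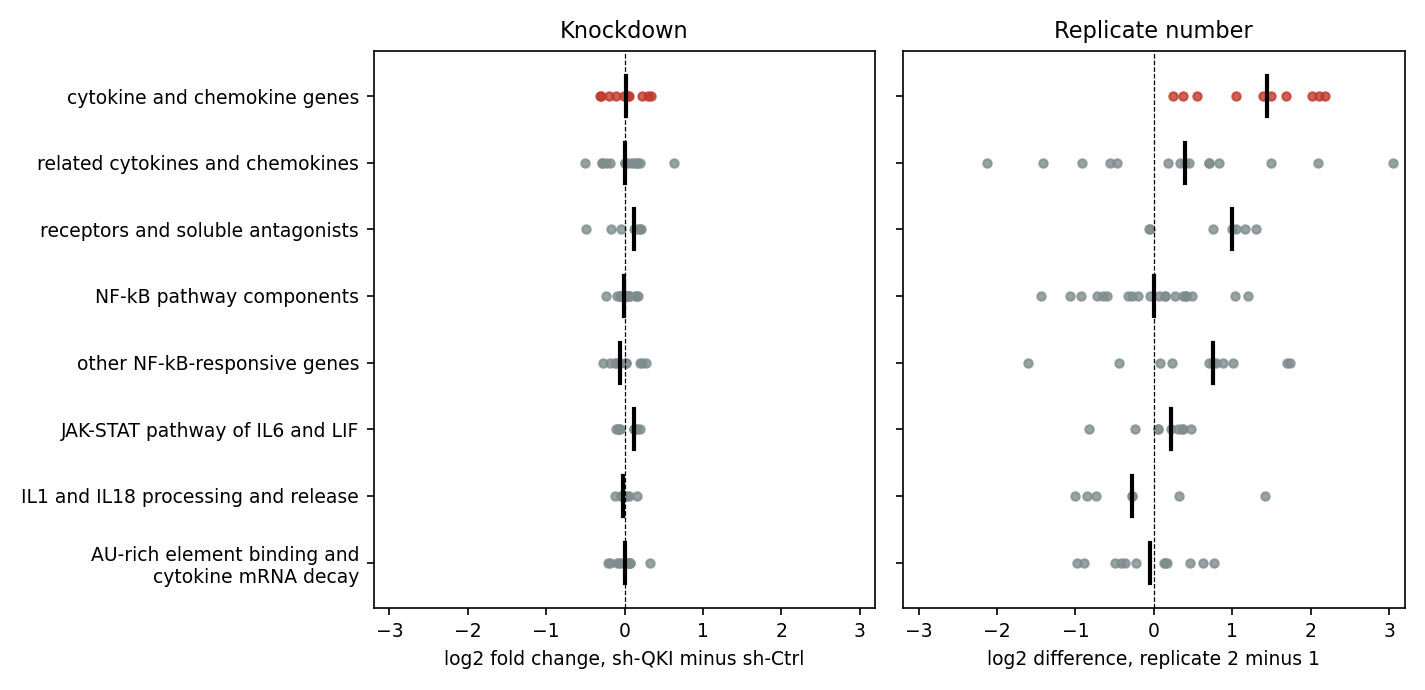
Left, log2 fold change of sh-QKI minus sh-Ctrl, and right, log2 difference of replicate 2 minus replicate 1, for each tested gene of the 10 and of the 7 lists, with a line at the median of each list. The medians of the knockdown comparison lie between -0.06 and 0.12, and those between the numbers reach 1.44 for the 10 genes and 1.00 for the receptors.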

How the data were processed

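Total RNA of BEAS2B cells was made into TruSeq libraries and sequenced as single-end reads on an Illumina GAII. With Bowtie, allowing up to 3 mismatches, the authors aligned them to hg19 and to the splice junctions of protein-coding genes in Ensembl, and dropped ambiguous reads. Versions of both are not given in the sources used. The authors deposited 1 table of RPKM for each of the 4 libraries, and a missing gene was set to 0. Read numbers were recovered by dividing each RPKM by the worth of 1 read, which rests on the library total and the gene length. Both were solved from the same RPKM values, the length so that the reads came out whole. That 100% came out whole (relative tolerance 1e-08) is therefore no separate check. Summed over genes, these reads come to 1.35 to 1.53 times the library totals, so a read in overlapping transcripts or genes may have been counted more than once, and counting intervals were computed on reads divided by the ratio of the recovered gene length to the annotated exons where that ratio exceeds 1. Depth sets how narrow these intervals are, and they cover counting error only.

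The test was limma 3.58.1 (R 4.3.3) with its trend option, applied to log2(RPKM + 0.5) of the 11829 genes whose mean reached 0.5 RPKM, two-sided, with Benjamini-Hochberg adjustment and no block. Fold changes on this scale understate changes of low genes. A check on simulated data was run with and without a block, and its outcome is not reported here. The design named no covariate, and the replicate number was tested in a second fit with group as a term. Alternatives were other pseudocounts and filters, median centring, a replicate block, voom and leaving out each library. The 10 genes, the pathway and marker lists and the tests were chosen with earlier results of these data known. The text names *QKI*, *ACTB*, *GAPDH*, the 10 genes and, from each list, up to 4 tested genes with the highest mean RPKM, of which 1 is not reported here. Motifs were searched in RefSeq promoter windows (GRCh38.p14) and in GENCODE canonical transcripts on GRCh37, with Python 3.11.15, pandas 2.3.3, numpy 2.4.6 and scipy 1.17.1. Figures were drawn with matplotlib 3.10.9.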

Additional observations from a re-analysis of the deposited data

How the results depend on the processing

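None of the 10 genes was called under any alternative run. Over all tested genes, 58 were called higher and 43 lower in sh-QKI with the replicate block, 48 and 66 with the replicate block and median centring, and 69 and 68 with voom and the replicate block. Same-numbered libraries deviated together across genes (r = 0.953). No shared culture is stated, so the numbers do not establish a pairing of cultures, though a block for the number does not require one. With the block the smallest adjusted p (limma) among the 10 genes was 0.385 (*CCL2*) and that of *QKI* was 3.16e-33. *CXCL16*, chosen after its values were seen, was the single call in the lists with the block (higher, limma adjusted p = 0.00418). Leaving out 1 library gave between 0 and 2 calls higher and between 0 and 1 lower. It moved the median log2 fold change of the 10 genes to -0.73 without sh-Ctrl replicate 1, 0.53 without sh-Ctrl replicate 2, 0.44 without sh-QKI replicate 1 and -0.55 without sh-QKI replicate 2. With one library left out, log2 fold changes ranged from -0.72 to 0.51 for *IL8*, -1.05 to 1.04 for *CXCL1*, -0.68 to 1.13 for *CXCL2*, -0.78 to 1.37 for *CCL2*, -1.05 to 0.46 for *IL6*, -0.11 to 0.19 for *LIF*, -1.05 to 1.72 for *IL1A*, -0.96 to 0.55 for *IL1B*, -0.64 to 0.0068 for *IL18* and -0.18 to 0.28 for *CSF1*. The runs with a library left out had no replicate block, so the replicate numbers were unbalanced between the groups. Their shifts thus carry the difference between the numbers and do not measure how stable the knockdown result is. The range was wide for *CXCL1* (log2 difference between the numbers 2.02) and narrow for *LIF* (0.24). *CXCL1* turned to 0.012 under voom with the replicate block. Median centring moved the median of the 10 genes to -0.01. For the difference between replicate numbers, all 10 genes kept their direction and their side of the threshold under the 5 alternatives run, though without the filter on low values the limma adjusted p of the 9 genes called lay between 0.000283 and 0.0372. Depth limits *IL1A* most, with 34 reads in sh-Ctrl replicate 1.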
